A study of Mus musculus with 11 samples.

Results

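Transcripts of 10 genes of the BCL2 family and of caspase inhibition were followed by RNA-seq through 10 libraries from mouse embryonic stem cells, in most of which SPT16 could be degraded. The genes were taken by symbol from a count table of 55291 genes: the pro-survival genes Bcl2, Bcl2l1 and Mcl1, the BH3-only genes Bcl2l11, Bid, Bad and Bmf, the effector genes Bak1 and Bok, and the caspase inhibitor gene Xiap. All 10 were in the table, and all 10 passed the filter on low counts. The cells were of the E14 line and were kept without feeders, on serum and LIF plus a GSK and a MEK inhibitor. SPT16, which with SSRP1 forms the histone chaperone FACT, carried at its C-terminal end a V5 tag joined to an auxin-inducible degron (AID) in a pair of separately targeted lines, named 10E and 11D in the table. Plates were left for 48 hours and then given 500 nM indole-3-acetic acid (IAA), the auxin that triggers the degron, or 0.1% ethanol (EtOH), its solvent, for 24 hours. The groups were tagged EtOH (4 libraries, 2 per line), tagged IAA (3 libraries, 1 from 10E and 2 from 11D) and untagged IAA (3 libraries of a line that carries the column code TIR1 and no degron on SPT16). There were no untagged EtOH libraries, the labels call each tagged line a clone, and they do not say whether replicates were separate cultures, so the p-values speak of the spread among these libraries, and that spread may be technical.

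Proteins of the BCL2 family decide at the outer membrane of the mitochondrion whether a cell enters the intrinsic pathway of apoptosis. The effectors BAK, BAX and, in some settings, BOK permeabilize that membrane. The pro-survival proteins BCL2, BCL-XL and MCL1 hold BAK and BAX in check. BH3-only proteins such as BIM, BID, BAD and BMF bind the pro-survival proteins or engage the effectors. XIAP acts further down by binding active caspases, and MCL1 and BCL-XL are known as main survival proteins of pluripotent stem cells.

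Total counts ran from 3100127 to 13510163 per library, and the 10E IAA library, the only one of its group, held 3820333. Mitochondrially encoded transcripts took 1.67% to 3.16% of counts. The transcript CT010467.1 took 2.64% and 4.27% in a pair of EtOH libraries and 0.129% to 1.58% in the others. Defining markers of embryonic stem cells were present in every group (8 of 8 with counts), with a summed level of 3592 to 5072 CPM (counts scaled to library size) in tagged EtOH libraries, 1341 to 1495 with IAA in the tagged lines and 4057 to 4260 with IAA in the untagged line. Summed fibroblast markers stood at 4.35 to 6.61, 8.82 to 11.4 and 3.63 to 5.72 CPM in these groups, with Postn at 0 in all of them. Primitive endoderm markers stood at 3.73 to 8.76, 11.7 to 17.7 and 3.63 to 7.85 CPM. Trophectoderm markers stood at 22.5 to 39.8, 32.2 to 42.4 and 26.9 to 33.3 CPM. Macrophage and blood markers summed to 24.3 to 32.6, 48.8 to 72.5 and 21.5 to 24.5 CPM, with Adgre1, Lyz2, Hba-a1 and Hbb-bs at 0 in every group and Ptprc at 0 outside tagged IAA. The stem cell, fibroblast, endoderm and blood marker sums in tagged IAA libraries thus lay outside their EtOH range. Outside tagged IAA the blood sum was that of Cd68 alone, the only marker of that list with counts. Pdgfra is in both the fibroblast and the primitive endoderm list, so these sums are not independent. The part of these markers in the changes below was not tested. Because IAA removes SPT16 as a protein, and no protein was measured, no transcript here checks the treatment labels.

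The BH3-only genes Bcl2l11 and Bmf, on the same chromosome, moved in opposite directions, and the 250 bases before the start of each are therefore shown (RefSeq, GRCm38.p6, each printed 5′ to 3′ on its gene's strand). They lie at chr2:128125788-128126037 (plus strand) for Bcl2l11 and chr2:118549687-118549936 (minus strand) for Bmf. Capitals mark matches on either strand. The GC box was searched as GGGCGG. The CCAAT box was searched as its name is spelled, and the FOXO site, the element of forkhead factors, as GTAAACA. No match overlaps another.
Bcl2l11: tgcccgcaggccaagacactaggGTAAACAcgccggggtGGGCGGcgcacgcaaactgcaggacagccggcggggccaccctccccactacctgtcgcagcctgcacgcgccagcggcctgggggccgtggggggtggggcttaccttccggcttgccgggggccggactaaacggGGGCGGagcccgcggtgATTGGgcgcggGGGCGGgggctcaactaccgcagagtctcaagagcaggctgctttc
Bmf: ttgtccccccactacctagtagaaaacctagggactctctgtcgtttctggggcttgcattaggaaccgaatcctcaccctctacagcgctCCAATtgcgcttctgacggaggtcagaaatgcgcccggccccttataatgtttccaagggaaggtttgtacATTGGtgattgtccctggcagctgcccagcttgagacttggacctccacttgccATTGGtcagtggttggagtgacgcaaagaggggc
The Bcl2l11 window has 3 GC boxes, 1 CCAAT box, which begins 57 bases before the start, and 1 FOXO letter match, which begins 227 bases before it. The Bmf window has 3 CCAAT boxes, which begin 159, 88 and 34 bases before the start, and no GC box. G and C make up 72.0% of the Bcl2l11 window and 54.0% of the Bmf window, against a median of 52.4% over 32851 such windows. Windows were found for all 10 genes. RefSeq gives several starts for Bcl2l1 (3 windows), Bmf (3), Xiap (3) and Bad (2). For each gene only the window nearest to its GENCODE 5′ end was searched, while the shares below cover every window. GC boxes were in 7 of the 10 (32.7% of all windows), CCAAT boxes in these 2 (33.9%) and the FOXO letters in Bcl2l11 alone (3.17%). A TATA box (TATAAA), an E-box (CACGTG) and a cyclic AMP element (TGACGTCA) were in none of the 10, and in 12.4%, 6.02% and 1.55% of all windows. A match describes letters and shows no bound factor, and for Xiap the RefSeq start nearest to the gene's GENCODE 5′ end lies 8157 bases from it.

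**Figure D1:**
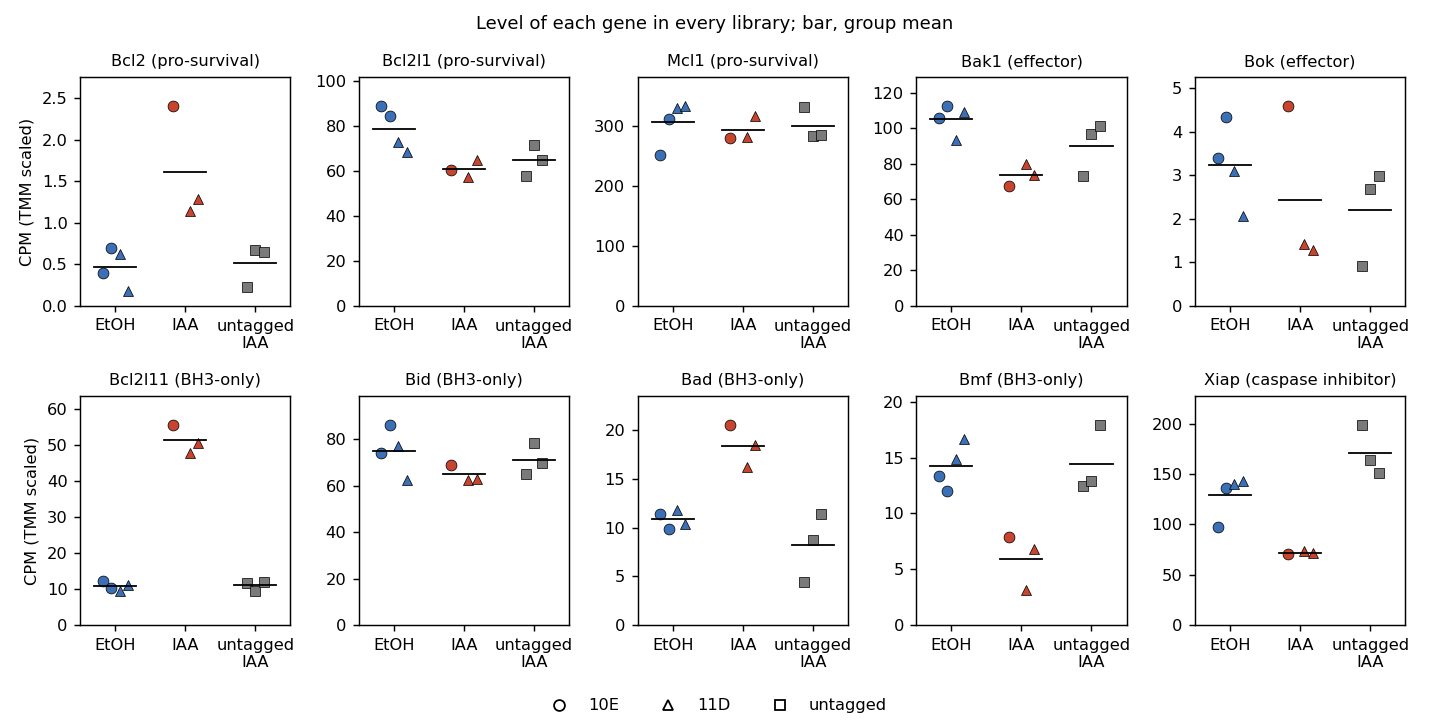
TMM-scaled CPM (y axis, from 0) of each gene in each of the 10 libraries (points, coloured by group; shapes give the line; bars are group means). The 3 tagged IAA libraries of Bcl2l11 lie between 47.8 and 55.6 CPM, above all others, while those of Mcl1 lie among the EtOH libraries.

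After IAA, 3 of the 10 genes were higher (Bcl2l11, Bcl2 and Bad) and 4 were lower (Bmf, Xiap, Bak1 and Bcl2l1), while Mcl1, Bid and Bok did not pass the test. Counts were scaled by TMM and tested with edgeR's quasi-likelihood test with line as a term, over 17904 genes, with calls made at an FDR (the false discovery rate of Benjamini and Hochberg) under 0.05. Of all genes tested, 29.3% were called higher and 28.1% lower. The members' 3 and 4 of 10 are read against these shares, and they are near the background. The median log2 fold change was -0.25 over the members and 0.03 over all genes tested. IAA and EtOH libraries did not overlap in CPM for 7 members, those called, while 52.4% of all genes tested had no overlap. In these bulk libraries, fewer cells that contain a transcript and less RNA of it per cell cannot be told apart.

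Among the pro-survival genes, Mcl1 (chromosome 3, 95658788 to 95663176, plus strand, mm10), whose product is a short-lived guardian that binds BAK and BIM, stood at 251 and 311 CPM in 10E EtOH and at 329 and 333 in 11D EtOH. It stood at 280 CPM in 10E IAA, at 281 and 315 in 11D IAA, with the untagged libraries at 331, 283 and 284. The 3 groups overlapped throughout. The log2 fold change of IAA against EtOH was -0.10, with a 95% interval of -0.30 to 0.10 (edgeR FDR 0.385). Bcl2l1 (chromosome 2, 152780668 to 152831728, minus strand), which encodes BCL-XL, stood at 89.0 and 84.2 CPM in 10E EtOH and at 73.0 and 68.2 in 11D EtOH. It stood at 60.6 CPM in 10E IAA, at 57.2 and 64.8 in 11D IAA, with the untagged libraries at 58.0, 71.6 and 64.7. Each tagged IAA library lay below each EtOH library, and the untagged libraries lay across both. Bcl2l1 fell by 0.33 ± 0.11 (SE) on the log2 scale (edgeR FDR 0.0157). The call ended under 3 of the alternatives: without the 10E IAA library the change was -0.20 (edgeR FDR 0.205), DESeq2 gave an FDR of 0.0503, and scaling by library totals gave 0.00 (edgeR FDR 0.983).

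Bcl2 (chromosome 1, 106538178 to 106714274, minus strand), the founding pro-survival gene of the family, was barely present. It had 14 counts over the 4 EtOH libraries, 35 over the 3 tagged IAA libraries and 12 over the 3 untagged libraries. The levels were 0.39 and 0.69 CPM in 10E EtOH, 0.62 and 0.18 in 11D EtOH, 2.41 in 10E IAA, 1.14 and 1.29 in 11D IAA, with the untagged libraries at 0.23, 0.67 and 0.65. All 3 tagged IAA libraries were above all other libraries. The log2 fold change was 2.06 ± 0.54, with a 95% interval of 0.92 to 3.20 (edgeR FDR 0.00381). Exons of D630008O14Rik, on the other strand, overlap 6.09% of the Bcl2 exon bases, and that gene had no count in any library.

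Among the BH3-only genes, Bcl2l11 (chromosome 2, 128126038 to 128162547, plus strand) gave the largest fitted fold change of the 10, within the interval of that of Bcl2. It encodes BIM, which binds all main pro-survival proteins and can engage effectors directly. Its level was 12.2 and 10.2 CPM in 10E EtOH and 9.32 and 11.2 in 11D EtOH. It was 55.6 CPM in 10E IAA and 47.8 and 50.7 in 11D IAA, against 11.8, 9.59 and 11.9 in untagged IAA. The tagged IAA libraries stood apart from the other 7, which overlapped one another. Bcl2l11 rose by 2.26 ± 0.13 on the log2 scale (edgeR FDR 3.21e-09). The groups had 351 counts in tagged EtOH and 1207 in tagged IAA.

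Bad (chromosome 19, 6941861 to 6951899, plus strand), whose product binds BCL2 and BCL-XL unless 14-3-3 proteins hold it in the cytosol, rose as well, by less. It stood at 11.4 and 9.86 CPM in 10E EtOH, at 11.8 and 10.4 in 11D EtOH, at 20.6 in 10E IAA, at 16.2 and 18.5 in 11D IAA, with the untagged libraries at 4.39, 8.75 and 11.4. Tagged IAA libraries were above all others, and the untagged libraries spread from below the EtOH range into it. Bad rose by 0.79 ± 0.16 on the log2 scale (edgeR FDR 0.00061). Exons of Gpr137 on the other strand cover 20.5% of the Bad exon bases. Since the strand setting of the counting is not given in the sources used here, the Bad values are uncertain to that extent. Gpr137 itself stood at 10.4 ± 2.18 CPM (SD, n = 4) in EtOH and 9.92 ± 1.08 (n = 3) in tagged IAA, with a log2 fold change of 0.02 ± 0.20 (edgeR FDR 0.933).

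Bmf (chromosome 2, 118528757 to 118549687, minus strand), which encodes a BH3-only protein tied to the actin-based motor complex, went the other way. It stood at 13.3 and 12.0 CPM in 10E EtOH, at 14.9 and 16.6 in 11D EtOH, at 7.88 in 10E IAA, at 3.13 and 6.78 in 11D IAA, with the untagged libraries at 12.5, 12.9 and 17.9. The tagged IAA libraries lay below all others, and the untagged range overlapped that of EtOH. Bmf fell by 1.21 ± 0.24 on the log2 scale (edgeR FDR 0.000397).

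Bid (chromosome 6, 120891930 to 120916853, minus strand), whose product carries the death receptor signal to the mitochondrion after cleavage by caspase-8, stood at 74.0 and 86.3 CPM in 10E EtOH and at 77.0 and 62.6 in 11D EtOH. It stood at 69.2 CPM in 10E IAA, at 62.6 and 62.9 in 11D IAA, with the untagged libraries at 65.1, 78.4 and 69.6. The groups overlapped. The log2 fold change was -0.18, with a 95% interval of -0.40 to 0.05 (edgeR FDR 0.170). Exons of Bcl2l13 on the other strand cover 17.7% of the Bid exon bases, and Bcl2l13 was higher in IAA (0.34 ± 0.09, edgeR FDR 0.00532), so the Bid values are uncertain to that extent.

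Of the effector genes, Bak1 (chromosome 17, 27019810 to 27029009, minus strand), which encodes BAK, stood at 106 and 113 CPM in 10E EtOH and at 93.2 and 109 in 11D EtOH. It stood at 67.4 CPM in 10E IAA, at 79.6 and 73.8 in 11D IAA, with the untagged libraries at 73.0, 96.5 and 101. Tagged IAA lay below EtOH in every library, while 1 untagged library lay among the tagged IAA values. Bak1 fell by 0.53 ± 0.10 on the log2 scale (edgeR FDR 0.000436), and scaling by library totals ended this call (-0.20, edgeR FDR 0.108). Exons of Ggnbp1 on the other strand cover 25.5% of the Bak1 exon bases, and Ggnbp1 stood at only 5.74 ± 1.40 CPM (SD, n = 4) in EtOH and 6.56 ± 1.15 (n = 3) in tagged IAA.

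Bok (chromosome 1, 93685660 to 93695764, plus strand), which encodes the effector BOK, stood at 3.40 and 4.34 CPM in 10E EtOH and at 3.11 and 2.06 in 11D EtOH. It stood at 4.60 CPM in 10E IAA, at 1.42 and 1.29 in 11D IAA, with the untagged libraries at 0.92, 2.69 and 2.98. The 10E IAA library was the highest of the 10 and both 11D IAA libraries were below all tagged EtOH libraries. Over both lines the log2 fold change was -0.32, with an interval of -1.05 to 0.41 (edgeR FDR 0.439).

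The caspase inhibitor gene Xiap (chromosome X, 42059679 to 42109656, plus strand) stood at 97.2 and 136 CPM in 10E EtOH and at 140 and 144 in 11D EtOH. It stood at 70.5 CPM in 10E IAA, at 73.7 and 71.2 in 11D IAA, with the untagged libraries at 199, 164 and 152. The groups were in a fixed order without overlap, with tagged IAA lowest and untagged IAA highest. Xiap fell by 0.89 ± 0.11 on the log2 scale (edgeR FDR 8.12e-06). The first 10E EtOH library lay well below the other 3 EtOH libraries.

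Compared per length (CPM per kilobase of the gene's merged GENCODE exons), the order of the levels was led by Mcl1 in every group. In tagged EtOH, Mcl1 (89.5 ± 11.2, SD, n = 4) was followed by Bak1 (43.7 ± 3.52), Bid (21.1 ± 2.75), Bcl2l1 (17.1 ± 2.10) and Xiap (13.7 ± 2.28). Bad (4.24 ± 0.35), Bmf (2.71 ± 0.38), Bok (1.75 ± 0.51), Bcl2l11 (1.33 ± 0.15) and Bcl2 (0.051 ± 0.025) stood lower. Neighbours whose libraries overlapped were Bid and Bcl2l1, Bcl2l1 and Xiap, Bmf and Bok, and Bok and Bcl2l11. In tagged IAA, Bcl2l11 (6.40 ± 0.49, n = 3) stood seventh of the 10, below Xiap (7.58 ± 0.18) and overlapping Bad (7.21 ± 0.85), which overlapped both. Bok (1.32 ± 1.02) and Bmf (1.13 ± 0.47) overlapped below them, and Bcl2 (0.18 ± 0.08) remained last. In untagged IAA, Xiap (18.1 ± 2.60, n = 3) overlapped Bid (20.0 ± 1.90) and lay above Bcl2l1 (14.1 ± 1.49), and Bcl2l11 (1.38 ± 0.16) overlapped Bok (1.19 ± 0.60).

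**Figure D2:**
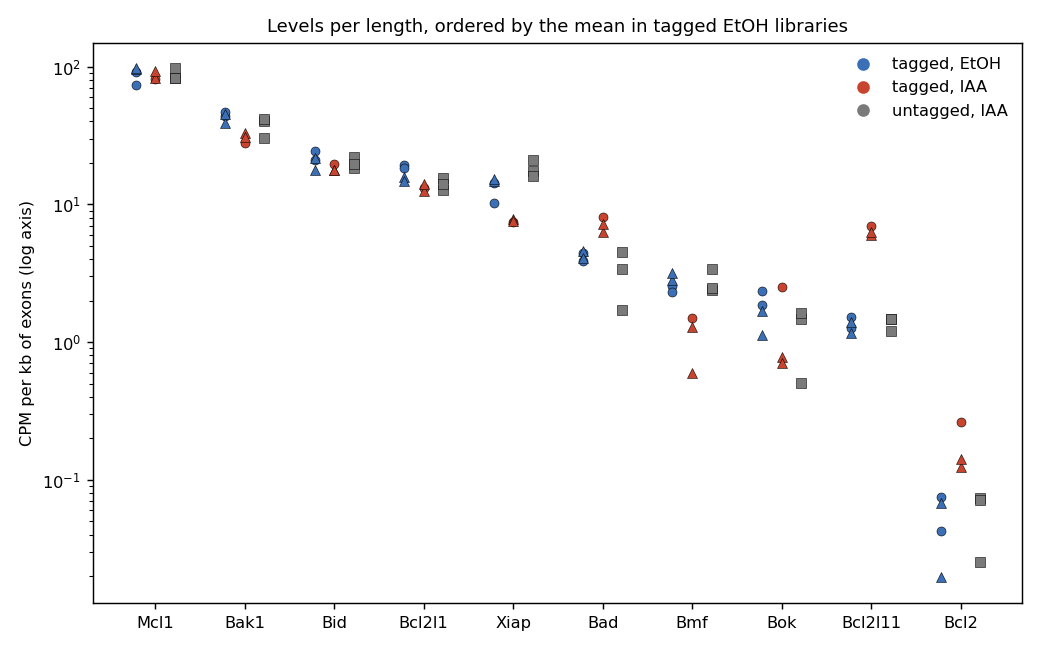
CPM per kilobase of exons (y axis, log scale) of each gene in every library, with genes ordered by their mean in tagged EtOH; colours give the group and shapes the line. Mcl1 leads in all groups, and Bcl2l11 moves from a mean of 1.33 in tagged EtOH to 6.40 in tagged IAA.

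Ratios within a library do not depend on how libraries are scaled to one another. For each 100 units of Mcl1 per length, Bcl2l11 had 1.20 to 2.06 in EtOH, 6.84 to 8.45 in the tagged cells given IAA and 1.44 to 1.78 in the untagged ones. Its share of the summed level of the 4 BH3-only members was 3.83% to 5.30%, 19.3% to 19.5% and 4.10% to 6.14%. For each 100 units of Bcl2l11, Bmf had 168 to 245 in EtOH, 10.0 to 21.7 in the tagged cells given IAA and 162 to 230 in the untagged ones. These 3 ratios in tagged IAA lay outside the range of all other libraries. All 3 hold Bcl2l11, whose tagged IAA libraries already stood apart, so they restate that separation and are not separate results. The summed level of the 4 BH3-only members was also set against 100 of the summed pro-survival members. It was 23.4 to 31.6 in the EtOH libraries, 30.6 to 37.7 in the tagged cells given IAA and 21.8 to 29.8 in the untagged ones. Other BH3-only genes are not in this sum, among them Pmaip1 and Bbc3, which were higher with IAA, and Bnip3 and Hrk, which were lower. The ratio thus describes the members and not all BH3-only genes. Tagged IAA overlapped tagged EtOH and lay above untagged IAA. Mcl1 made up 79.0% to 86.7% of the summed pro-survival level in EtOH, 85.9% to 86.7% in the tagged cells given IAA and 84.1% to 88.4% in the untagged ones.

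The effect of IAA in each tagged line came from a fit with 1 coefficient per line and treatment. In 10E, 5 members were called (Bcl2l11, Bad, Bcl2l1, Bak1 and Xiap), where 35.4% of all genes were called. In 11D, 6 were called (Bcl2l11, Bcl2, Bad, Bmf, Bak1 and Xiap), where 46.2% of all genes were called. DESeq2 called 3 in 10E (Bcl2l11, Bak1 and Xiap) and 3 in 11D (Bcl2l11, Bmf and Xiap), where it called 22.8% and 30.5% of all genes. With 1 IAA library, the value in 10E assumes that it varies like the other groups. For Bcl2l11 the log2 fold change was 2.31 ± 0.20 in 10E and 2.23 ± 0.18 in 11D. For Bmf it was -0.70 ± 0.36 in 10E and -1.52 ± 0.28 in 11D, and the 95% interval of the difference (10E less 11D) ran from -0.17 to 1.80. For Bok it was 0.23 ± 0.45 and -0.85 ± 0.45, with a difference of -0.30 to 2.45, and for Bcl2l1 -0.53 ± 0.16 and -0.20 ± 0.13, with a difference of -0.76 to 0.11. No member was called for a difference between the lines in its response (0 of 10 by edgeR, DESeq2 likewise 0). With 1 IAA library in 10E and intervals as wide as those above, these fits cannot show that the responses were alike. Of all genes, edgeR called 0% of 17904 and DESeq2 0.00312% of 32032. Under EtOH the lines differed in 0 of 10 members by edgeR, where 3.23% of all genes were called. DESeq2 gave an adjusted p to 8 of the 10, not to Bcl2 or Bok, and called 0 of them, where it called 3.17% of all genes. In edgeR Bcl2l1 had the smallest FDR of the members (0.31 higher in 10E on the log2 scale, edgeR FDR 0.211).

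**Figure D3:**
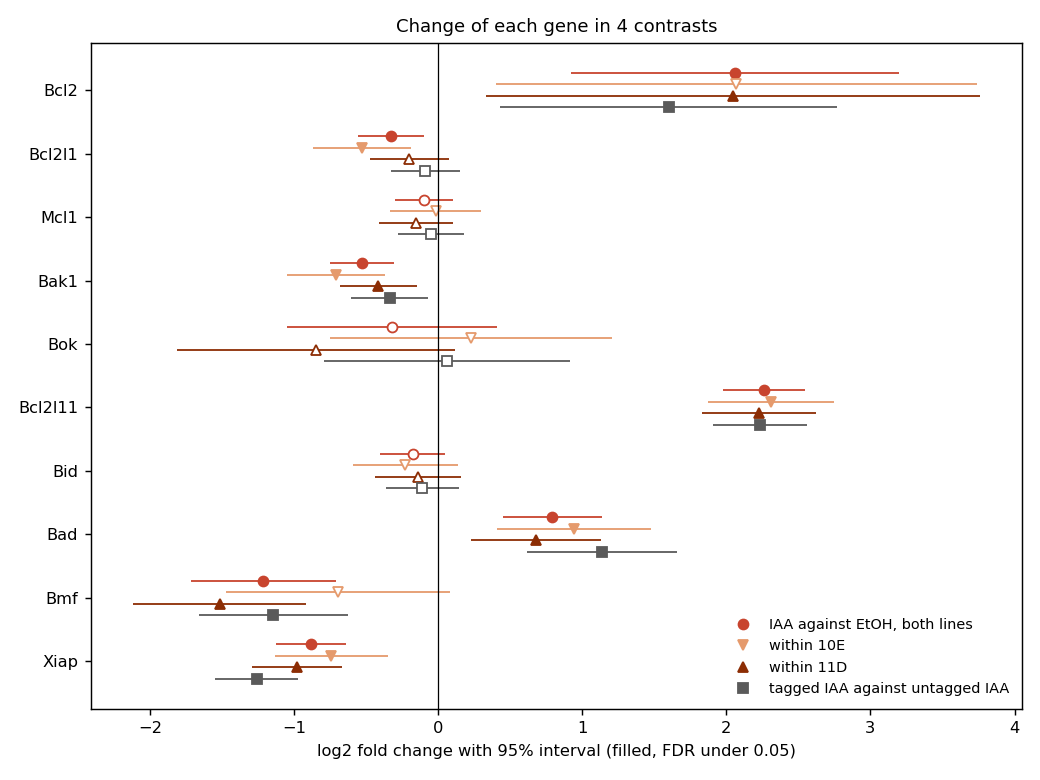
Log2 fold change (x axis) with its 95% interval for each gene in 4 contrasts; filled symbols passed an edgeR FDR of 0.05. Bcl2l11 lies between 2.23 and 2.31 in all 4, and the interval of Bcl2 is the widest among the genes called over both lines, 0.92 to 3.20.

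The untagged line shows the genes in cells that received IAA without a degron on SPT16. It shares the tagged IAA libraries with the comparison above, and line and tag cannot be told apart in it. Against untagged IAA, tagged IAA had 3 members higher (27.9% of 17439 genes tested were called higher) and 3 lower (27.8% were called lower). Bcl2l11 was higher by 2.23 ± 0.15, Bcl2 by 1.60 ± 0.55 and Bad by 1.14 ± 0.25 on the log2 scale. Xiap was lower, at -1.26 ± 0.14, as were Bmf at -1.15 ± 0.24 and Bak1 at -0.34 ± 0.13. The calls of Bcl2 (edgeR FDR 0.0222) and Bak1 (edgeR FDR 0.034) ended under several alternatives. DESeq2 called neither (FDR 0.141 and 0.0883). Leaving out 10E IAA replicate 1 or 11D IAA replicate 2 ended both in edgeR (FDR 0.0957 and 0.0858 for Bcl2, 0.178 and 0.110 for Bak1). Bcl2 was also lost without untagged replicate 1 (FDR 0.0597), and Bak1 without untagged replicate 2 or 3 (FDR 0.113 and 0.166) or with library totals (-0.04, edgeR FDR 0.804). Bcl2l1, at -0.09 with an interval of -0.33 to 0.15, did not pass, nor did Mcl1 (-0.05, -0.28 to 0.18), Bid (-0.11, -0.36 to 0.14) or Bok (0.06, -0.79 to 0.91).

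Tagged EtOH against untagged IAA sets the tagged cells with solvent beside the untagged cells with IAA. By edgeR 0 of 10 members differed, where 3.57% of 17439 genes were called. The members of smallest FDR were Xiap, 0.41 ± 0.12 lower in tagged EtOH (edgeR FDR 0.0618), and Bcl2l1, 0.27 ± 0.10 higher (edgeR FDR 0.139). DESeq2 called 1 of the 8 members it gave an adjusted p, Xiap (FDR 0.0285), where it called 7.23% of all genes. Xiap was also called by edgeR with library totals (FDR 0.025), with no filter on low counts (FDR 0.00802), without 10E EtOH replicate 2 (-0.54, FDR 0.0167) and without untagged replicate 3 (-0.49, FDR 0.0451).

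Over the 14 alternatives for IAA against EtOH, Bcl2l11 stayed between 2.14 and 2.59, Bcl2 between 1.78 and 2.62, Bad between 0.69 and 1.12, Bmf between -1.51 and -0.88 and Xiap between -0.99 and -0.55 on the log2 scale. These 5 were called under all 14. Bak1 was called under 13 and Bcl2l1 under 11. The choice of scaling mattered for the small changes. With library totals in place of TMM, the median over all genes moved from 0.03 to 0.36, and 73.0% of calls were higher in place of 51.0%. Under that scaling Mcl1 stood at 0.24 and was called higher (edgeR FDR 0.0282), so that 4 members were higher and 2 lower, where 43.1% of all genes were called higher and 15.9% lower. In the authors' deposited table, which comes from DESeq2, 2 members were higher (Bcl2l11 at 2.30 and Bad at 0.85) and 3 lower (Bmf at -1.16, Xiap at -0.83 and Bak1 at -0.44), where 18.8% and 17.8% of all genes with an adjusted p were. In the authors' deposited table the adjusted p was 0.066 for Bcl2 and 0.139 for Bcl2l1.

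**Figure D4:**
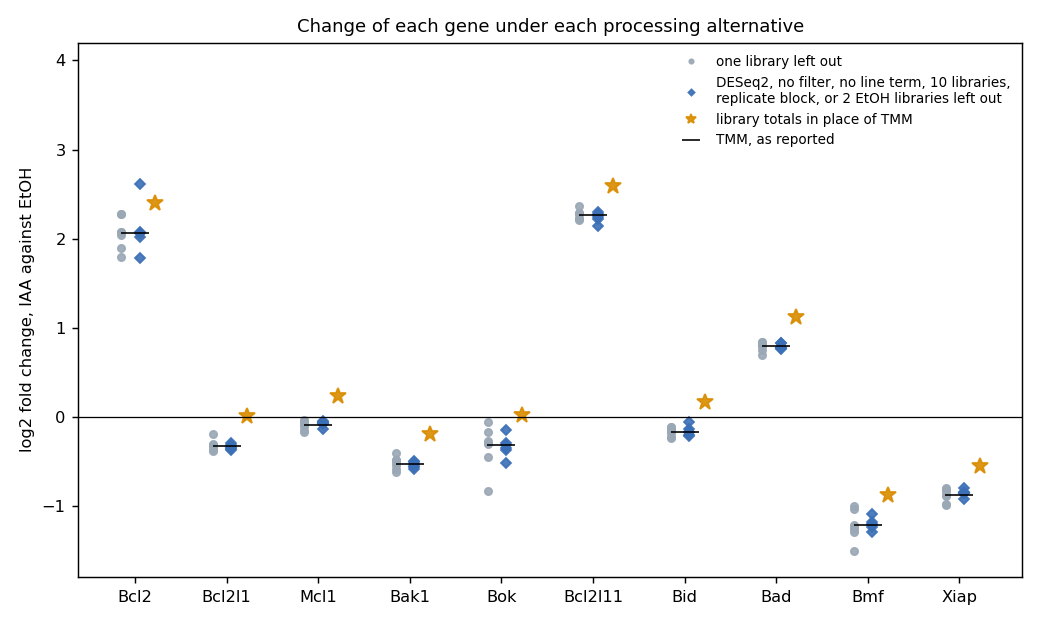
Log2 fold change of IAA against EtOH (y axis) for each gene with TMM scaling (bar) and under each of the 14 alternatives (points; grey, 1 library left out; star, library totals). All points of Bcl2l11, Bcl2 and Bad lie above 0 and all of Bmf and Xiap below 0, while Mcl1, Bid, Bok and Bcl2l1 reach or cross it with library totals.

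Genes around the family were read from a list of 80 other apoptosis genes, of which 63 were tested, 17 were higher, 21 lower and 25 did not pass. Of all genes tested, 29.3% were called higher and 28.1% lower, and the 17 and 21 of 63 are near these shares. The counts by list given below are small and are to be read against the same shares. The median log2 fold change of the 63 was -0.03, against 0.03 over all genes. Of the other BH3-only genes, 2 of 5 were higher and 2 lower. Pmaip1, which encodes the MCL1-binding NOXA, rose from 4.84 ± 0.95 to 45.1 ± 20.8 CPM (SD, n = 4 and 3) and Bbc3, which encodes PUMA, from 19.2 ± 8.79 to 44.2 ± 8.75. Bnip3 (-1.33 ± 0.21), known from mitophagy, and Hrk (-1.48 ± 0.58), with 10 counts over the IAA libraries, fell on the log2 scale. For both, tagged IAA libraries overlapped those of EtOH (15.3 to 28.5 and 24.0 to 76.7 CPM for Bnip3, 0 to 0.88 and 0.62 to 4.05 for Hrk). The remaining effector gene Bax fell by 0.79 ± 0.10, beside the 0.53 of Bak1. Bcl2l2, the 1 other pro-survival gene tested of 6, did not pass (-0.02, edgeR FDR 0.919), and of the BCL2 homologues Bcl2l13 rose and Bcl2l14 fell (-1.95 ± 0.26).

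Of the partners that bind the proteins of the 10 genes, those of MCL1 ubiquitination had 2 of 3 lower: the ligase gene Huwe1 (-1.35 ± 0.10) and the deubiquitinase gene Usp9x (-1.71 ± 0.11), whose products act on MCL1 in opposite ways. Anchors of BIM, BMF and BAD had 3 of 9 higher and 3 lower. Dynll2, the light chain that holds BMF, rose by 1.06 ± 0.12 and Sfn, a 14-3-3 gene, by 2.27 ± 0.14, while the 14-3-3 genes Ywhae (-1.05 ± 0.10) and Ywhaz (-0.63 ± 0.11) fell. Of the mitochondrial membrane partners, 2 of 4 were lower, the channel genes Vdac1 (-1.20) and Vdac2 (-0.43), the latter encoding a protein that binds BAK. Transcription factors known to act on BCL2 family genes had 1 of 7 higher, Trp73 (1.94 ± 0.16), and 4 lower, among them Trp53 (-0.77 ± 0.11) and Foxo3 (-0.62 ± 0.09).

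Beside Xiap, 1 of 5 IAP family genes was higher, Birc3 (0.73 ± 0.19), and 2 were lower, the ubiquitin ligase gene Birc6 (-0.74 ± 0.09) and Birc7 (-3.34 ± 0.58), with 5 counts over the IAA libraries. Diablo, whose product SMAC displaces caspases from XIAP, was the 1 of 4 IAP antagonists called, higher by 0.97 ± 0.13. Caspase and apoptosome genes had 4 of 9 higher and 1 lower, among them Casp14, a caspase of skin, at 2.99 ± 0.43, with the lower one, Casp2, at -0.56 ± 0.11. Caspase substrates and nucleases had 3 of 5 higher, among them Endog (1.38 ± 0.26) and Dffa (0.89 ± 0.15), and 2 lower, Parp1 (-0.74 ± 0.09) and Aifm1 (-0.69 ± 0.11). Of the death receptor genes and adaptors, 1 of 7 was higher, Fas, from 8 counts over the EtOH libraries to 168 over the IAA libraries, and 1 was lower, Fadd (-0.67 ± 0.20). The largest edgeR FDR among the genes said to have risen or fallen in these lists was that of Hrk, 0.0386. With library totals, 30 of the 63 were higher and 16 lower, where 43.1% and 15.9% of all genes were. Of the genes called with TMM, Hrk (-1.15, edgeR FDR 0.108), Casp2 (-0.23, FDR 0.0959) and Fadd (-0.34, FDR 0.182) did not pass under that scaling. Nor did Vdac2 (-0.10, edgeR FDR 0.357) and the transcription factor gene Foxo1 (-0.10, FDR 0.543, against -0.44 with TMM). None of the genes called with TMM changed sign. Against untagged IAA, 18 of 64 were higher and 25 lower, where 27.9% and 27.8% of all genes were. Of the called genes named here, Bnip3 (-0.55, edgeR FDR 0.102) and Foxo1 (-0.13, FDR 0.441) did not pass there. The rest passed with the same sign. Tagged EtOH against untagged IAA called 2 of 64, Bax (0.40, edgeR FDR 0.0448) and Trp73 (0.74, FDR 0.0412), where 3.57% of all genes were called. Exons of Bax, Bnip3, Bcl2l2, Bcl2l13, Bcl2l14, Birc6, Diablo, Endog, Parp1, Fadd, Vdac2, Huwe1, Foxo1 and Trp73 overlap those of another gene. The overlap runs from 0.132% of the exon bases in Parp1 to 40.9% in Diablo, and the values of these genes are uncertain to that extent.

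**Figure D5:**
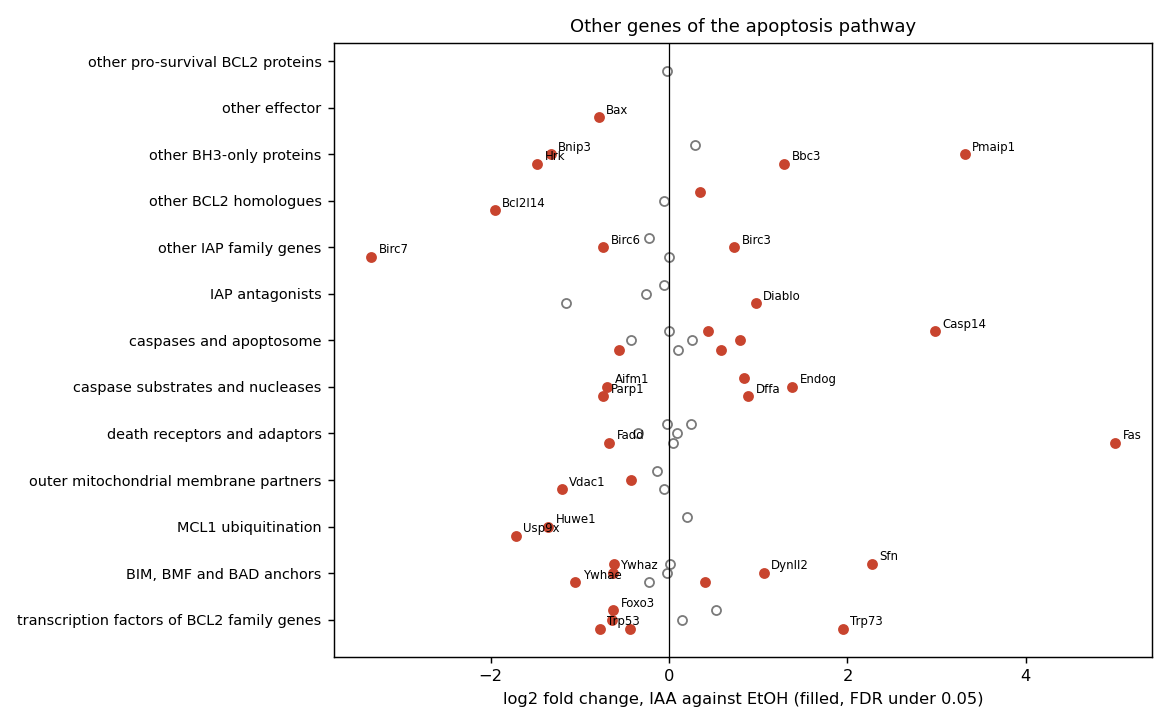
Log2 fold change of IAA against EtOH (x axis) for the 63 other apoptosis genes tested, by list (rows); filled points passed an edgeR FDR of 0.05 and some are named. Most lists hold genes on both sides of 0, with Fas at 5.00 and Birc7 at -3.34 as the ends.

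The genes whose profiles were most like each member were found among 10366 genes of at least 5 CPM, by the root mean square difference of log2(CPM + 0.5) over the 10 libraries after each profile was centred on its mean. This is a description over libraries that share the treatment groups. For Bcl2l11 they included Acsbg2 (0.16), against a median of 1.10 over the candidates. For Xiap they included Taok1 (0.09, median 0.53). They were for Bmf Snord43 (0.16) and Tom1l1 (0.20), and for Bad Arhgef4 (0.16) and Peli3 (0.17). For Bak1 they were Ppp2r1a (0.04) and Snrnp70 (0.08), for Bcl2l1 Chaf1a (0.06) and Vac14 (0.07), and for Bcl2 Dffb (0.21) and Lef1 (0.23). Mcl1 was nearest to Ska3 (0.06) and Ptp4a2 (0.07), Bid to Arpc4 and Kat2a (both 0.07), and Bok to Sema6c and Kdf1 (both 0.22). Bcl2 and Bok, under 5 CPM, were not among the candidates, nor were predicted genes, Riken clones and bare identifiers. None of the members that were candidates was among the 2 nearest genes of another member. The closest pair among the 10 was Bid and Bcl2l1 (0.14), and Bcl2l11 was farthest from its nearest member, Bcl2 (0.64).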

How the data were processed

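RNA was sequenced from NEBNext Directional libraries, per the labels' protocols. The authors deposited whole-number read counts per gene symbol, without normalization. Per the submitters' processing notes, STAR, deepTools and the mm10 build were used; their versions, the counter and its strand setting are not stated there. The authors' deposited comparison table was used for description only: its log2 fold changes and standard errors, and its p-values, come from DESeq2, per the file headers.

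Of the 12 libraries in the design text and the 11 labelled samples, the 10 in the count table were analysed; the others were not analysed here. The clone numbers of the labels could not be matched to 10E or 11D. The columns coded TIR1 were read as untagged, being the ones with 3 IAA replicates and no EtOH. Group sizes were 4, 3 and 3. Replicates differed by more than sampling noise.

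Counts were tested with edgeR 4.0.16 in R 4.3.3 (quasi-likelihood F test, TMM, filterByExpr, Benjamini-Hochberg over all genes) and, as an alternative, DESeq2 1.42.0. Comparisons within a line used 1 coefficient per line and treatment, and those with the untagged line all 10 libraries, with tagged lines averaged. The standard error (SE) is |log2 fold change| over the root of F. Depth limits precision for Bcl2 and Bok most. Exon lengths came from GENCODE M21 and promoter windows from RefSeq.

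Alternatives were library totals, DESeq2, no filter, no line term, all libraries in 1 fit, a replicate block and leaving out libraries. All 10 members were named, with the called genes of smallest FDR in each list (at most 2 in each direction), Bax and Pmaip1 always, and the 2 genes most like each member; some genes that this rule names are left out of the text. The members and lists were chosen with earlier results of these data known.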

Additional observations from a re-analysis of the deposited data

Results flagged for a closer look

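The Xiap level in 10E EtOH replicate 1, 97.2 CPM, stood apart from the other 3 tagged EtOH libraries, which lay between 136 and 144 CPM. The gap to the nearest library took up 0.83 of the group's range. It was the 1 flag among 10 groups of 4 libraries examined, 1 per gene, and chance flags about 1 group in 20. Without this library Xiap was still called lower in IAA than in EtOH.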

How the results depend on the processing

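With library totals in place of TMM, 2 members were lower in IAA than in EtOH, 4 were higher and 30 other apoptosis genes were higher. Of all genes, 43.1% were called higher and 15.9% lower with library totals. Under this scaling Bcl2l1 stood at 0.0030 and Mcl1 at 0.24 on the log2 scale against EtOH, and Mcl1 at 0.25 against untagged IAA (edgeR FDR 0.0445), each with the sign turned, alongside a shift of the median of all genes from 0.03 to 0.36. Tagged EtOH and untagged IAA differed in 1 member, Xiap, with library totals, with DESeq2 and with no filter. The same held when 10E EtOH replicate 2 and 11D EtOH replicate 1, which hold most CT010467.1, were left out. That alternative was chosen after seeing the data, and the cause was not tested. Of all genes, 1.38% were called higher and 4.10% lower with library totals, and 7.23% in either direction with DESeq2. The shares higher and lower were 1.95% and 2.20% with no filter, and 0.905% and 1.80% without that pair. With that pair left out, Xiap was 0.56 lower in 10E than in 11D under EtOH on the log2 scale. Each line then has 1 EtOH library, assumed to vary like the other groups. That of 10E is the one whose Xiap level stood apart (97.2 CPM). Leaving out 1 library at a time gave 0 to 1 members for tagged EtOH against untagged IAA. Of all genes, 0.0943% to 2.98% were then called higher and 0.366% to 3.20% lower. A fit with the replicate number as a block beside line gave 3 members higher and 4 lower, and 19 and 21 other apoptosis genes, and changed no member's call. It called 28.2% of all genes higher and 27.2% lower. Deviations of same-numbered libraries had correlations of -0.22 and -0.14 between 10E EtOH and the 11D groups, and of 0.25 between 11D EtOH and 11D IAA. With 2 libraries per group, and with 10E IAA and the untagged line outside this check, it cannot decide whether the numbers pair the libraries. The interaction could not be fitted without the 10E IAA library. Depth limits Bcl2 (14 counts in EtOH) and Bok (46 counts in tagged IAA) most.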

Other observations

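The balance of Diablo, whose product displaces caspases from XIAP, to Xiap was read within libraries, a ratio chosen after the values were seen. For each 100 units of Xiap per length, Diablo had 18.4 to 24.4 in tagged EtOH libraries, 72.9 to 86.2 with IAA in the tagged lines and 14.3 to 21.0 with IAA in the untagged line. The ratio in tagged IAA lay outside the range of all other libraries. Exons of other genes, among them Gm49027 on the same strand, cover 40.9% of the Diablo exon bases, so its level is uncertain to that extent.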
